A study of Homo sapiens with 15 samples.

Results

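The genes described here encode the pyruvate dehydrogenase (PDH) complex and the enzymes that switch it off and on: 4 kinases (PDK1, PDK2, PDK3 and PDK4), 2 phosphatases (PDP1 and PDP2) and 4 subunits (PDHA1, PDHB, DLAT and PDHX). The rows of both deposited count tables whose Ensembl identifier maps to these symbols were taken, which gave 10 genes of 62700 in each table. RNA was measured by RNA-seq in 143B, an established human osteosarcoma cell line, in 15 libraries of 5 conditions with 3 libraries each. Non-OSCs were adherent cultures without a hairpin, in DMEM with serum and added sodium pyruvate. OSCs (osteosarcoma stem cells in the study's terms) were the same line grown as spheres in tumorsphere medium. That medium has another base, with GlutaMAX, EGF, basic FGF and B27. Attachment, basal medium, serum, added pyruvate and other added factors therefore differ between OSCs and non-OSCs at once and cannot be told apart. The other 3 conditions were OSCs infected with lentivirus, carrying shCtrl or 1 of 2 hairpins against PDK1 (shPDK1#1 and shPDK1#2). The methods list an empty pLKO.1 puro plasmid and a control vector without saying which was shCtrl. The columns of the first table are headed 2D and 3D, and they were read as non-OSCs and OSCs from the meaning of these terms. No source used here says whether the 3 libraries of a condition came from separate cultures, so the p-values measure the spread between these libraries, which may be technical.

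The PDH complex sits in mitochondria and turns pyruvate, the end product of glycolysis, into acetyl-CoA for the citric acid cycle. The kinases phosphorylate its E1 alpha subunit and so turn the complex off, and the phosphatases remove the phosphate and turn it on again. PDK1 is a well-known target of the hypoxia-inducible factor HIF-1, and diverting pyruvate to lactate through the kinases is a known feature of many tumours.

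The libraries summed to between 7992499 and 10495051 counts in the table of OSCs and non-OSCs and to between 8073055 and 11256536 in the hairpin table. The tables were normalized apart, so levels are compared only within a table. Levels are given as CPM, the usual rate per unit of library total after TMM scaling, and every gene was tested with the quasi-likelihood test of edgeR, the p-values being adjusted by Benjamini-Hochberg over all genes tested and called at 0.05. With 3 libraries against 3, an exact permutation test of a single gene cannot go below p = 0.1, two-sided. Of the markers of the bone-forming lineage, COL1A1, SPARC, SPP1 and RUNX2 were detected in every library, whereas SP7 had at most 1 count and IBSP 0 counts in every library. All 9 markers of this list summed to between 1084 and 1147 CPM in non-OSCs and between 2495 and 2576 CPM in OSCs, and to between 3651 and 3729, 3918 and 3993, and 5211 and 5345 CPM with shCtrl, shPDK1#1 and shPDK1#2. COL1A1, SPARC and SPP1 made up most of this sum and were higher in OSCs, whereas RUNX2, the transcription factor of the lineage, was lower (log2 fold change -1.11, edgeR adjusted p = 9.30e-09), and the mean CPM of ALPL and COL1A2 was 1.49 and 0.0411 in OSCs beside 2.66 and 0.907 in non-OSCs. The 3 haematopoietic markers summed to between 0.708 and 2.77 CPM and the 2 endothelial markers to between 0.208 and 1.85 CPM. The 3 epithelial markers summed to between 1097 and 1227 CPM in non-OSCs and between 292 and 302 CPM in OSCs, with the keratins KRT8 and KRT18 lower and EPCAM not called. With the hairpins these 3 summed to between 329.8 and 354 CPM (shCtrl), 379 and 397 CPM (shPDK1#1), and 436 and 475 CPM (shPDK1#2), without overlap, and KRT18 was higher with both hairpins (edgeR adjusted p = 0.00717 and 8.38e-09). The part of these markers in the results was not tested.

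PDK1 (ENSG00000152256.14) lies on GRCh38 chr2:172555373-172608669, PDK3 (ENSG00000067992.17) on chrX:24465244-24550466 and DLAT (ENSG00000150768.17) on chr11:112025408-112064404, all on the forward strand, with 11, 11 and 14 exons in the Ensembl canonical transcript. Sequences upstream of a RefSeq start are shown for these genes. They were chosen as the kinases and the subunit with the largest differences between OSCs and non-OSCs. For PDK1 the printed stretch lies inside the gene interval given above, and the window of its other start is not printed. The sequences come from RefSeq promoter windows of GRCh38.p14, which hold 250 bases before and 50 bases after each start. Only the part free of annotated exons is printed. Capitals mark the core letters of the HIF binding site, ACGTG or GCGTG on either strand.
PDK1, chr2:172555840-172556006, upstream of the second of its 2 RefSeq starts: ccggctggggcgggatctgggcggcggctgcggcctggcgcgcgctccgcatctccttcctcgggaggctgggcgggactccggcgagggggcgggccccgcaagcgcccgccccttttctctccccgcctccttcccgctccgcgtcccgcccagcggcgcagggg
PDK3, chrX:24465036-24465243: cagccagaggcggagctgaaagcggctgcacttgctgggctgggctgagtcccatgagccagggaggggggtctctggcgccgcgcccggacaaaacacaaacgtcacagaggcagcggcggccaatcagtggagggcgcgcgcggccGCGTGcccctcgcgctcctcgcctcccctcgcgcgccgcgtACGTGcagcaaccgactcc
DLAT, chr11:112025158-112025407: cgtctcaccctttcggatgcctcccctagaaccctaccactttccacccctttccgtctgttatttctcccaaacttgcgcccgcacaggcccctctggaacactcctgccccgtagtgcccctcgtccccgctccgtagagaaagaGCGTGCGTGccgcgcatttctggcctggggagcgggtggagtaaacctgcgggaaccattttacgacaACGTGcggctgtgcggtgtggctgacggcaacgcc
The printed part held 0 core matches for PDK1, 2 for PDK3 and 3 for DLAT, counting overlapping matches separately. The whole PDK1 window held 2 matches, both past the printed part, and the window of its other start held 0. One of these cores or the other was present in 48.4% of all 35116 windows, so their presence does not set a window apart, and the gene that was higher (PDK3) and the gene that was lower (DLAT) in OSCs both held them. The CRE letters TGACGTCA, the AP-1 letters TGANTCA and the letters TCAAGGTCA of the estrogen-related receptors were in 1.85%, 7.71% and 0.353% of all windows and in 0 windows of these genes. PDP1 had no entry in the table of windows.

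The first comparison asked how the PDH genes differed between OSCs and non-OSCs. The kinases PDK1 and PDK3 were higher in OSCs, and the catalytic subunits PDHA1, PDHB and DLAT were lower. No difference passed the test for PDK2, PDP1, PDP2 or PDHX. Thus 5 of the 9 genes tested were called, 2 higher and 3 lower, beside 63.9% of all 14287 genes tested (32.4% higher and 31.5% lower), and the same 5 genes had groups that did not overlap, beside 66.9% of all genes. The share of called genes was therefore no larger here than in the genome as a whole. The median log2 fold change of the 9 genes was -0.06, beside -0.0053 over all genes tested.

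PDK1, the kinase that the hairpins target, was at 45.4, 51.6 and 42.9 CPM in non-OSCs and at 73.6, 69.9 and 67.5 CPM in OSCs. All OSC libraries lay above all non-OSC libraries, a 1.51-fold difference in mean CPM (log2 fold change 0.59 ± 0.079 SE, edgeR adjusted p = 9.85e-07). In bulk RNA, a change in the number of cells that express a gene and a change in its RNA per cell cannot be told apart.

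PDK3, the sister kinase that is least inhibited by pyruvate, was at 37.6, 34.6 and 33.8 CPM in non-OSCs and at 105.6, 103.4 and 91.7 CPM in OSCs. The groups were far apart, and the 2.84-fold difference (log2 fold change 1.502 ± 0.077 SE, edgeR adjusted p = 2.09e-13) was larger than that of PDK1, with 95% intervals of 1.34 to 1.66 for PDK3 and 0.43 to 0.76 for PDK1.

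PDK2, a kinase found in most tissues, was low, at 9.26, 7.77 and 9.92 CPM in non-OSCs and 8.38, 7.79 and 9.78 CPM in OSCs, and the groups overlapped. Its log2 fold change of -0.06 had a 95% interval from -0.41 to 0.29, which leaves room for a moderate difference either way. PDK2 shares 38.6% of its exon bases with SAMD14 on the opposite strand. The use of strand in counting is not given in the sources used here, so reads of the 2 genes may not be separated. PDK4, the kinase induced by fasting in muscle and heart, had 1, 1 and 3 counts in non-OSCs and 9, 3 and 4 in OSCs. It was too low to be tested in either table, and since every non-OSC library was at or below 3 counts, no fold is given.

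**Figure D1:**
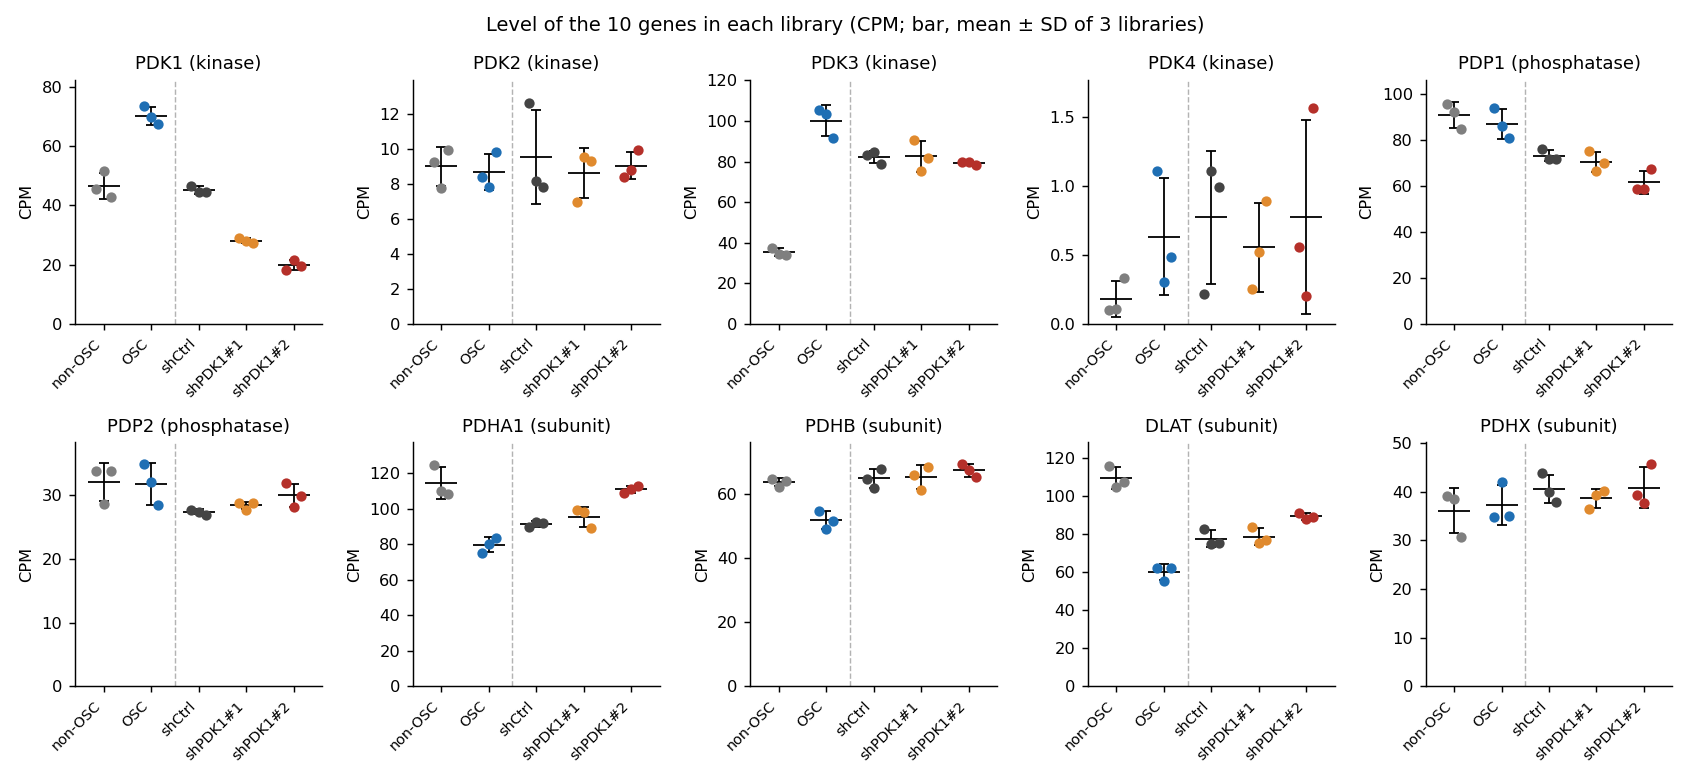
Level in CPM (y axis, from 0, its own scale in each panel) of the 10 genes in each of the 15 libraries (points) by condition (x axis), with the mean ± SD of 3 libraries (bars). The dashed line separates the tables, which were normalized apart. PDK3 sits at 33.8 to 37.6 CPM in non-OSCs and at 91.7 to 105.6 CPM in OSCs, and PDK1 falls in steps from shCtrl to shPDK1#1 to shPDK1#2.

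The phosphatases did not follow PDK1 and PDK3. PDP1, which calcium stimulates, was at 95.8, 92.2 and 85.0 CPM in non-OSCs and at 94.0, 86.1 and 80.8 CPM in OSCs, and PDP2, which is insensitive to calcium, was between 28.6 and 33.8 CPM and between 28.4 and 34.9 CPM. Both genes overlapped between the groups. The log2 fold change was -0.07 for PDP1 (95% interval -0.21 to 0.08, edgeR adjusted p = 0.412) and -0.01 for PDP2 (-0.22 to 0.20, adjusted p = 0.926), so the intervals leave out a change as large as that of PDK1.

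Among the subunits, DLAT, the E2 acetyltransferase that forms the core of the complex, was at 115, 104.5 and 107 CPM in non-OSCs and at 62.3, 55.3 and 62.3 CPM in OSCs. All OSC libraries were lower, at 55.0% of the non-OSC mean (log2 fold change -0.87 ± 0.069 SE, edgeR adjusted p = 3.34e-10).

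PDHA1, the E1 alpha subunit that carries the sites the kinases phosphorylate, was at 124, 109.9 and 108 CPM in non-OSCs and at 75.03, 80.2 and 83.6 CPM in OSCs. The groups were apart, with OSCs at 69.7% of non-OSCs (log2 fold change -0.52 ± 0.068 SE, edgeR adjusted p = 7.18e-07). PDHB, its E1 beta partner, was at 64.5, 62.1 and 63.8 CPM in non-OSCs and at 54.7, 49.1 and 51.5 CPM in OSCs, again without overlap, at 81.5% (log2 fold change -0.30 ± 0.073 SE, edgeR adjusted p = 0.00122).

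PDHX, the protein that anchors the E3 subunit in the complex, was between 30.7 and 39.1 CPM in non-OSCs and between 34.7 and 42.0 CPM in OSCs, with overlap (log2 fold change 0.05, 95% interval -0.17 to 0.26, edgeR adjusted p = 0.704). The ratio of DLAT to PDHX counts within a library, which no normalization between libraries can move, was 2.95, 2.72 and 3.49 in non-OSCs and 1.79, 1.32 and 1.78 in OSCs. Exons of PDHA1 and DLAT overlap opposite-strand genes over 19.3% (MAP3K15) and 13.3% (PIH1D2) of their bases, those of PDK1 over 2.998% (PDK1-AS1), and those of PDK3 and the phosphatases over 0%.

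**Figure D2:**
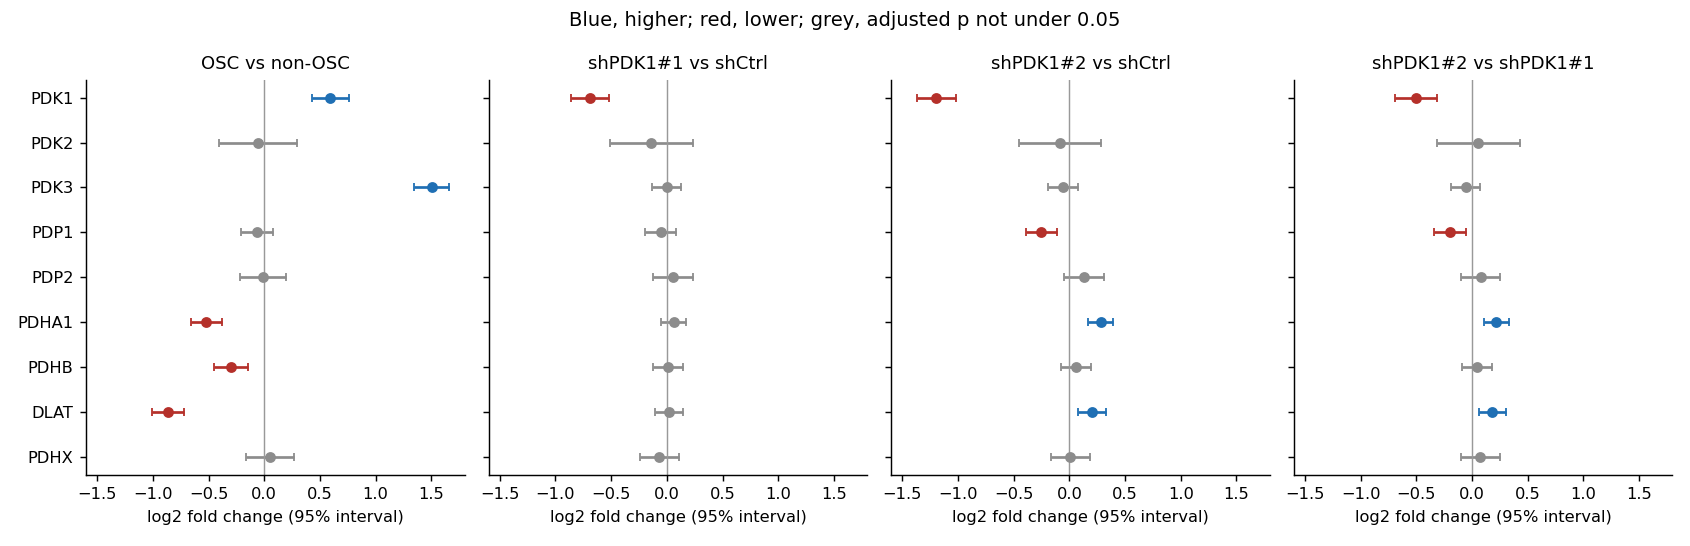
Log2 fold change (x axis) with its 95% interval (bars) of the 9 genes tested, in each of the 4 comparisons; blue is higher, red is lower and grey did not pass an adjusted p of 0.05. PDK1 and PDK3 lie to the right in OSCs against non-OSCs and PDHA1, PDHB and DLAT to the left, while PDK1 alone passes with shPDK1#1.

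Lists of related genes put these values in context, to be read beside the 63.9% of all genes tested that were called in this comparison (32.4% higher and 31.5% lower). Of the partners of the complex and the genes that supply its cofactors, 5 of 8 tested were lower in OSCs and 0 higher. Among them DLD, the E3 subunit, had a log2 fold change of -0.48 ± 0.070 SE (edgeR adjusted p = 3.97e-06) and LIAS, the enzyme that makes the lipoyl group of the E2 subunit, -0.92 ± 0.17 SE (adjusted p = 7.63e-05). The median of this list was -0.60. The share called, 5 of 8, was near that of all genes.

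Of the genes that bring pyruvate in or use it elsewhere, 6 of 10 tested were lower and 2 higher. SLC16A3, a lactate exporter, rose by 1.17 on the log2 scale (SE 0.060, edgeR adjusted p = 2.03e-13), and LDHB, the lactate dehydrogenase subunit of oxidative tissues, fell by 0.66 (SE 0.043, adjusted p = 1.09e-11). In the sister dehydrogenase complexes, which act on other keto acids, 4 of 9 were lower and 2 higher, also near the share of all genes, led by OGDHL at -1.79 and PPM1K, the phosphatase of the branched-chain complex, at 0.98.

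Of the transcription factors known to act on PDK genes, 4 of 11 tested were higher and 2 lower in OSCs. FOXO3 and PPARA, which induce PDK4 in other tissues, were higher by 0.98 and 1.18 on the log2 scale (edgeR adjusted p = 7.98e-12 and 5.60e-10). HIF1A was at 0.06 (edgeR adjusted p = 0.311), and EPAS1 was higher by 0.16 (edgeR adjusted p = 0.0252). All 10 genes of a list of hypoxia responses outside glycolysis were higher, with a median of 1.89, for example NDRG1 at 3.18 and ADM, the vasodilator peptide adrenomedullin, at 2.58. This list moved with PDK1 and PDK3 in this comparison, and its part in their difference was not tested.

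The hairpin libraries asked what followed the loss of PDK1. PDK1 itself was at 46.7, 44.7 and 44.4 CPM with shCtrl, at 29.0, 27.8 and 27.3 CPM with shPDK1#1 and at 18.3, 21.5 and 19.6 CPM with shPDK1#2. The 3 groups did not overlap, so the target was lower under both hairpins, as labelled, and at 62.0% and 43.7% of shCtrl a good part of the mRNA remained. The log2 fold change was -0.69 ± 0.083 SE with shPDK1#1 (edgeR adjusted p = 7.13e-06) and -1.19 ± 0.086 SE with shPDK1#2 (adjusted p = 5.89e-11). Both comparisons use the same 3 shCtrl libraries, so their values are given side by side and are not independent.

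With shPDK1#1, PDK1 was the only one of the 9 genes tested that was called, beside 3.06% of all 14574 genes tested (1.62% higher and 1.44% lower). PDK1 and PDP2 had groups that did not overlap, beside 19.3% of all genes. For PDP2 this was a near tie, with 27.738 CPM at most with shCtrl and 27.741 CPM at least with shPDK1#1. Its log2 fold change was 0.05 (edgeR adjusted p = 0.854). The background of 446 genes called with shPDK1#1 was 270 without shCtrl 1, 282 without shCtrl 2 and 245 without shPDK1#1 replicate 3. With shPDK1#2, 4 of 9 were called, beside 26.2% of all genes (12% higher and 14.2% lower): PDK1 and PDP1 were lower, and PDHA1 and DLAT were higher. These 4 and PDP2 had groups that did not overlap, beside 39.5% of all genes. The median log2 fold change of the 9 genes was -0.0016 with shPDK1#1 and 0.0072 with shPDK1#2, beside 0.0024 and 0.0083 over all genes.

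The other kinases showed no rise that passed the test. PDK3 was at 83.3, 84.6 and 79.0 CPM with shCtrl, at 90.6, 75.4 and 81.6 CPM with shPDK1#1 and at 79.9, 79.6 and 78.1 CPM with shPDK1#2. The groups overlapped, and the log2 fold change was -0.0016 with shPDK1#1 (95% interval -0.13 to 0.13) and -0.06 with shPDK1#2 (-0.19 to 0.07), so that a change of PDK3 beyond these intervals was not seen while PDK1 lost more than that under either hairpin. PDK2 was between 6.97 and 12.6 CPM in these 9 libraries, with log2 fold changes of -0.14 and -0.08, and PDK4 had between 2 and 15 counts.

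PDHA1 was at 89.4, 92.5 and 91.9 CPM with shCtrl, at 99.3, 98.0 and 88.8 CPM with shPDK1#1 and at 109, 111 and 112 CPM with shPDK1#2. All libraries of shPDK1#2 lay above the rest, while those of shPDK1#1 overlapped with shCtrl. The mean was 1.21-fold that of shCtrl with shPDK1#2 (log2 fold change 0.28 ± 0.055 SE, edgeR adjusted p = 0.000356), and the log2 fold change with shPDK1#1 was 0.06 (adjusted p = 0.7001).

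DLAT was at 82.4, 74.7 and 75.2 CPM with shCtrl, at 83.5, 75.4 and 77.0 CPM with shPDK1#1 and at 91.0, 87.6 and 88.8 CPM with shPDK1#2. The last group was again above the others, 1.15-fold over shCtrl (log2 fold change 0.20 ± 0.060 SE, edgeR adjusted p = 0.0133). This call held in 6 of 9 fits with a library left out. Those 6 include the fits without a shPDK1#1 library, which kept both compared groups whole. The call was lost without shCtrl 2 (edgeR adjusted p = 0.0779), shCtrl 3 (0.0639) or shPDK1#2 replicate 1 (0.0578). PDHB was between 61.1 and 69.1 CPM and PDHX between 36.4 and 45.6 CPM over the 9 libraries, with overlap in every pair of groups and no call.

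PDP1 was at 76.0, 71.8 and 71.8 CPM with shCtrl, at 75.1, 66.6 and 70.2 CPM with shPDK1#1 and at 58.6, 58.9 and 67.3 CPM with shPDK1#2. With shPDK1#2 every library was below every shCtrl library, at 84.1% of the mean (log2 fold change -0.25 ± 0.068 SE, edgeR adjusted p = 0.00703). PDP2 was at 27.7, 27.4 and 27.0 CPM with shCtrl and between 28.2 and 31.8 CPM with shPDK1#2. These groups did not overlap either, but its log2 fold change of 0.13 was not called (adjusted p = 0.286). Within the libraries, the ratio of PDP1 to PDP2 counts was 2.67 ± 0.061 with shCtrl, 2.49 ± 0.11 with shPDK1#1 and 2.06 ± 0.21 with shPDK1#2 (mean ± SD, n = 3 each).

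**Figure D3:**
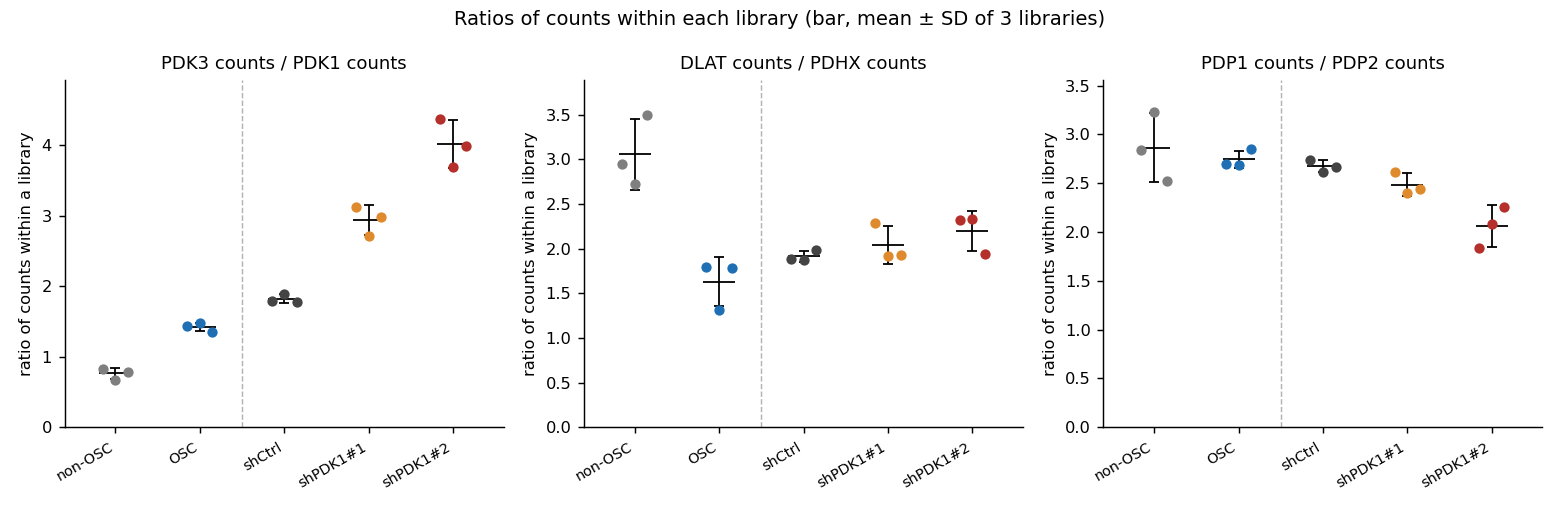
Ratio of the counts of 2 genes within each library (y axis, from 0) by condition (x axis), for PDK3 over PDK1, DLAT over PDHX and PDP1 over PDP2; points are libraries and bars the mean ± SD of 3. The PDK3 to PDK1 ratio lies between 0.671 and 0.828 in non-OSCs and between 3.69 and 4.38 with shPDK1#2, and the dashed line separates the tables.

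The difference between the hairpins was tested in the same fit. PDK1 was lower with shPDK1#2 than with shPDK1#1 (log2 difference -0.50 ± 0.091 SE, edgeR adjusted p = 0.00024), and 4 of 9 genes were called, beside 16.3% of all genes (6.5% higher and 9.78% lower), 3 of them without overlap, beside 30.7%. PDHA1 was higher by 0.22 (SE 0.055, adjusted p = 0.00568), a call lost without shPDK1#1 replicate 3 (0.17, adjusted p = 0.0613). PDP1 was lower by 0.20 on the log2 scale (adjusted p = 0.0474) and DLAT higher by 0.18 (adjusted p = 0.0349), both close to the threshold. The PDP1 libraries of the hairpins overlapped, and its call held in 2 of 9 fits with a library left out (not without any shCtrl library, shPDK1#1 replicate 1 or 3, or shPDK1#2 replicate 1 or 2), with adjusted p up to 0.194. That of DLAT held in 5 of 9 (not without shPDK1#1 replicate 2 or 3, or shPDK1#2 replicate 1 or 3), with adjusted p up to 0.124. Those 5 include the fits without a shCtrl library, which kept both hairpin groups whole.

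Counting the kinases together shows what made up the family. The ratio of PDK3 to PDK1 counts within a library was 0.763 ± 0.082 in non-OSCs and 1.42 ± 0.061 in OSCs, and in the other table it was 1.82 ± 0.064 with shCtrl, 2.94 ± 0.21 with shPDK1#1 and 4.02 ± 0.34 with shPDK1#2 (mean ± SD, n = 3 each). The summed CPM of the 4 kinases was 91.1 ± 3.71 in non-OSCs and 179.8 ± 9.67 in OSCs, and 137.9 ± 5.37, 119.7 ± 6.76 and 108.8 ± 1.55 with shCtrl, shPDK1#1 and shPDK1#2. In CPM per kilobase of union exons, PDK1 made up 45.8% ± 3.93 of the summed level in non-OSCs and 38.8% ± 0.060 in OSCs, and PDK3 29.6% ± 1.33 and 47.0% ± 1.99. The PDK1 share was 31.5% ± 0.997 with shCtrl, 22.7% ± 0.756 with shPDK1#1 and 17.3% ± 1.39 with shPDK1#2. These shares depend on the length given to PDK3, whose union of exons is 17456 bases and whose canonical transcript is 1741 bases. With canonical lengths, an alternative chosen after the data were seen, the PDK1 share was 12.6% in non-OSCs, 7.66% in OSCs, and 6.01%, 3.84% and 2.82% with shCtrl, shPDK1#1 and shPDK1#2, in the same order within each table.

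Ordered by CPM per kilobase of union exons, the subunits and PDP1 stood above PDP2 and the kinases PDK1, PDK2 and PDK4 in all 5 conditions. In OSCs the order was PDHA1 (16.1), PDP1 (15.5), PDHB (10.97), PDHX (10.01), DLAT (7.95), PDK3 (5.74), PDK1 (4.74), PDP2 (3.87), PDK2 (1.58) and PDK4 (0.139). In non-OSCs it was PDHA1 (23.1), PDP1 (16.2), DLAT (14.5), PDHB (13.5), PDHX (9.71), PDP2 (3.897), PDK1 (3.14), PDK3 (2.02), PDK2 (1.64) and PDK4 (0.0394). Neighbours whose libraries overlapped were PDHA1 and PDP1, and PDHB and PDHX, in OSCs, and PDP1 and DLAT in non-OSCs. The order depends on the lengths used, and most for PDK3: with canonical lengths it came first in OSCs, at 57.6 CPM per kilobase, and took place 5 in non-OSCs, at 20.3. PDHB then stood above PDHA1 in all 5 conditions, for example at 34.3 beside 23.8 in OSCs and at 42.1 beside 34.1 in non-OSCs.

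With the hairpins, the counts of the same lists stand beside 3.06% of all genes called with shPDK1#1 and 26.2% with shPDK1#2. By edgeR's test, 0 of 8 partners and cofactor genes were called with either hairpin (1 and 0 at an unadjusted p under 0.05, and 0 and 0 by DESeq2), and DLD did not pass with shPDK1#1 (-0.12, edgeR adjusted p = 0.375). With shPDK1#2, 4 of 10 pyruvate genes were higher, with CS, the citrate synthase that takes up the acetyl-CoA, at 0.26 ± 0.040 SE (adjusted p = 1.53e-05) and LDHB at 0.23 ± 0.040 SE (adjusted p = 8.31e-05); the number was 2 without shCtrl 3 or without shPDK1#2 replicate 2. With shPDK1#1 it was 0 of 10 by edgeR (2 at an unadjusted p under 0.05, and 0 by DESeq2).

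In the sister complexes, shPDK1#2 had OGDHL higher by 0.70 and OGDH, the E1 subunit of the 2-oxoglutarate complex, lower by 0.39 on the log2 scale (edgeR adjusted p = 9.67e-05 and 3.32e-06), among 3 of 9 called, and shPDK1#1 had 0 of 9 by edgeR, at an unadjusted p under 0.05 and by DESeq2 alike. Of the transcription factors, 1 of 11 was called with shPDK1#1, EPAS1 at 0.33 (adjusted p = 0.0127), which was lost without shCtrl 3 (0.0908) and without shPDK1#1 replicate 1 (0.0667) or 3 (0.128). With shPDK1#2, 3 of 11 were called, with FOXO1 at 0.55 and FOXO3 at -0.24 (adjusted p = 0.000797 and 0.00138).

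In these libraries PDK1 was itself the target of the hairpins, and any link between it and the hypoxia list was not tested. With shPDK1#1, 4 of 10 genes of this list were higher and 0 lower. With shPDK1#2, 6 were higher and 1 lower (7 called, but 4 without shPDK1#2 replicate 3). The lower gene was NDRG1, at a mean of 966 CPM with shPDK1#2 beside 1115 CPM with shCtrl. ADM was higher by 0.83 ± 0.065 SE and 0.70 ± 0.065 SE (edgeR adjusted p = 2.73e-09 and 6.19e-09), and EGLN3, a prolyl hydroxylase of the HIF system, by 0.55 ± 0.070 SE and 0.86 ± 0.068 SE (adjusted p = 1.95e-05 and 4.00e-10), in the order shPDK1#1 and shPDK1#2.

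**Figure D4:**
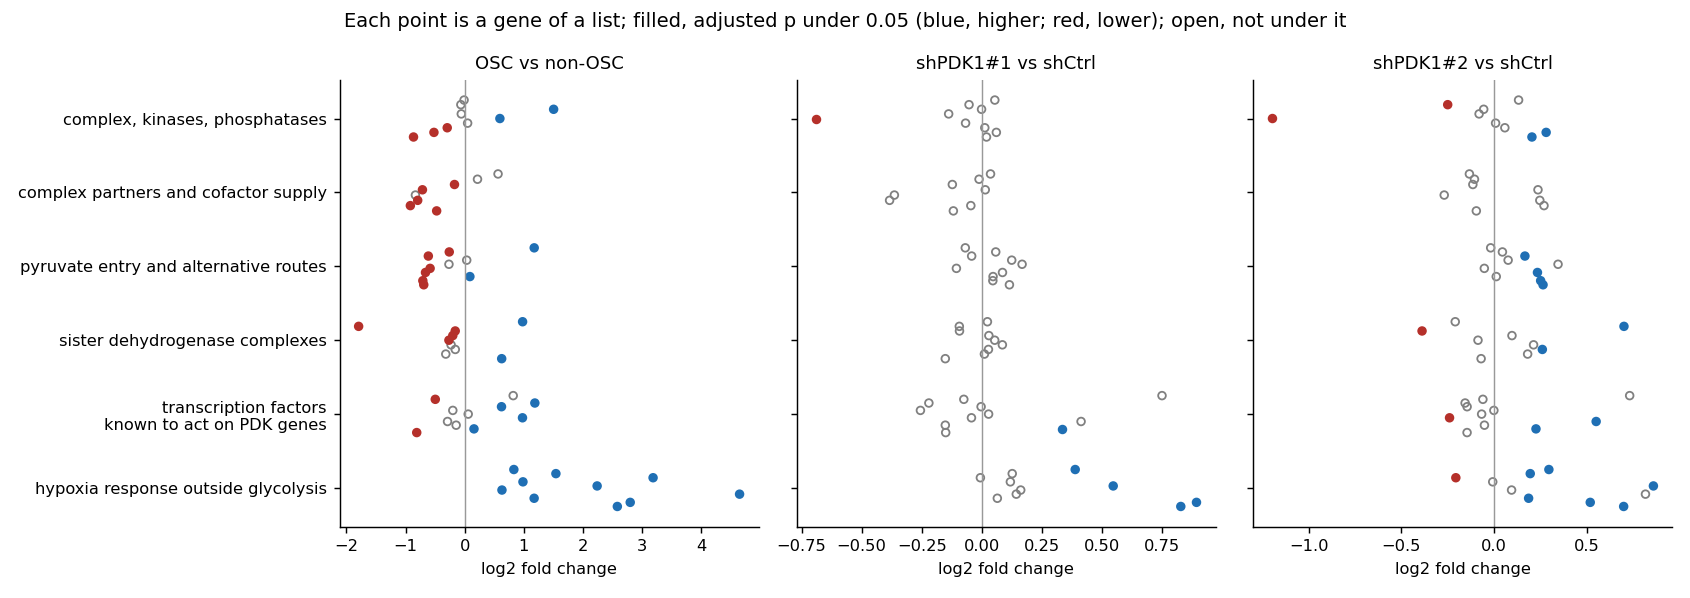
Log2 fold change (x axis, its own scale in each panel) of each tested gene (points) of the PDH genes and of 5 lists around them (y axis), for OSCs against non-OSCs and for each hairpin against shCtrl; filled points passed an adjusted p of 0.05. All 10 hypoxia genes lie to the right in OSCs. With shPDK1#1 and shPDK1#2, 4 and 6 of them are higher, and 1 is lower with shPDK1#2.

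The genes whose log2 CPM followed 3 of the PDH genes most closely were found among 9850 genes, by the smaller of the correlations over the 6 libraries of one table and the 9 of the other. The points share their conditions, and the values are the highest among these genes, so they describe likeness only. In the hairpin table PDK3 differed little between conditions (log2 fold change -0.0016 with shPDK1#1 and -0.06 with shPDK1#2). Its values there may therefore follow scatter between libraries instead of conditions. For PDK1 they were DUSP8, CHD5 and GNAQ (0.97 each), for PDK3 ARL6IP5 (0.92), TLCD5 (0.86) and ANO6 (0.86), and for PDHA1 PUM3 (0.97), RPL27 (0.96) and PABPN1 (0.96). DUSP8, a phosphatase of MAP kinases, had log2 fold changes of 3.82 in OSCs against non-OSCs, -0.59 with shPDK1#1 and -1.25 with shPDK1#2.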

How the data were processed

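Total RNA was sequenced in read pairs on an Illumina NovaSeq. The authors used FastQC (ver. 0.12.1) and Trimmomatic (ver. 0.39) before alignment by STAR (ver. 2.7.11a), with GRCh38.p14 as the genome, and deposited an expected count per gene from RSEM (ver. 1.3.3), without normalization between libraries. The annotation and the use of strand are not given in the sources used here. All 62700 identifiers matched GENCODE 44, which gave symbols, positions and exon lengths. Samples were grouped by their titles, and 0 columns were left unmapped.

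Of the values, 6.85% and 6.92% were not whole, and all were rounded. Each table was fitted on its own with edgeR (ver. 4.0.16) in R (ver. 4.3.3), with TMM factors (0.981 to 1.02 and 0.993 to 1.01), filterByExpr by condition and the quasi-likelihood test with Benjamini-Hochberg adjustment. All 9 hairpin libraries entered one fit. RSEM divides reads among the transcripts they match, so genes with shared sequence can gain or lose counts. The chi-square of counts between replicates, over its degrees of freedom, was 1.96 to 3.56, above sampling noise, and each library counted once. Depth was 7992499 to 11256536 counts, and a floor of 3 counts covers counting error only.

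All 10 PDH genes were named, with the 3 genes most like PDK1, PDK3 and PDHA1 (mean of at least 10 CPM, prior count 2). Context genes were taken from the 2 of lowest adjusted p per list and comparison, but not all of these are named. Those of the comparison between the hairpins are left out, although some of them were called. HIF1A and EPAS1 in OSCs, NDRG1 with shPDK1#2, and the markers, were named after their values were seen. An item of one list is not reported here, and that list was counted without it. Genes and lists were chosen with earlier results of these data known. Alternatives were DESeq2 (ver. 1.42.0), library size alone, other filters, a replicate block, only the compared groups, counts not rounded, other gene lengths, and each library left out. The test code was run on simulated counts first, with changed genes drawn from genes of at least 1 CPM.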

Additional observations from a re-analysis of the deposited data

Results flagged for a closer look

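These 4 results were flagged because the effects of the 2 hairpins, each against the same shCtrl libraries, differed by the test of the difference itself (edgeR's quasi-likelihood test, Benjamini-Hochberg adjusted over all genes; values are log2 differences, shPDK1#2 minus shPDK1#1). PDK1 differed by -0.50 (adjusted p = 0.00024), PDHA1 by 0.22 (0.00568), DLAT by 0.18 (0.0349) and PDP1 by -0.20 (0.0474). Those of DLAT and PDP1 were lost in 4 and 7 of the 9 fits that leave out a library. For DLAT, each of the 4 left out a library of a hairpin against PDK1.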

How the results depend on the processing

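In OSCs against non-OSCs, the 5 calls of PDH genes were kept under every alternative run, and so were those of PDK1 with both hairpins and of PDP1 and PDHA1 with shPDK1#2. The number of PDH genes called between the hairpins was 2 with DESeq2, which lost PDP1 (adjusted p = 0.0776) and DLAT (0.0523), and between 1 and 3 with a library left out (1 without shPDK1#1 replicate 3). PDP1 was also lost there with no filter on low counts (0.0517) and with only the compared groups fitted (0.0735). The genes called with shPDK1#1 ranged from 245 to 508 with a library left out. The PDK1 share of the summed kinase level moved with gene length: by the longest protein-coding transcript it was 37.6% in non-OSCs, 32.0% in OSCs, and 25.3%, 17.8% and 13.4% with shCtrl, shPDK1#1 and shPDK1#2, and by the Ensembl canonical transcript, added after the data were seen, 12.6%, 7.66%, 6.01%, 3.84% and 2.82%. With a replicate block, 9420, 507, 3943 and 2522 genes were called in OSCs against non-OSCs, shPDK1#1 and shPDK1#2 against shCtrl, and between the hairpins. Deviations of same-numbered libraries correlated between 0.0905 and 0.195 in one table and between -0.0597 and 0.29 in the other, so not every pair exceeded 0.1 and the numbers were not taken to pair the samples. In OSCs and non-OSCs every library correlated best with its own number (other pairs -0.145 to 0.0326), a hint from the data and not the design, which the hairpin table did not show. The block changed no call of a PDH gene. Low depth limits PDK4, which was never tested, and PDK2.

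Log2 fold changes that were not called changed sign under some alternatives. With library size alone, PDP2 was at 0.025 in OSCs against non-OSCs and PDHX at -0.0054 with shPDK1#2. With a library left out, the ranges in OSCs against non-OSCs were -0.15 to 0.019 for PDK2, -0.089 to 0.070 for PDP2 and -0.056 to 0.11 for PDHX. With shPDK1#1 they were -0.25 to 0.12 for PDK2, -0.068 to 0.057 for PDK3, -0.030 to 0.056 for PDHB, -0.023 to 0.067 for DLAT, -0.23 to 0.11 for LIAS, -0.10 to 0.18 for PPM1K and -0.042 to 0.021 for NDRG1. With shPDK1#2 they were -0.20 to 0.17 for PDK2, -0.079 to 0.064 for PDHX and -0.061 to 0.020 for SLC16A3. Between the hairpins they were -0.062 to 0.13 for PDK2, -0.11 to 0.011 for PDK3, -0.011 to 0.13 for PDHX, -0.024 to 0.072 for DLD and -0.034 to 0.16 for PPARA. The cause was not tested.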
